A study of Mus musculus with 8 samples.

Results

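The genes described here encode extracellular matrix glycoproteins: laminin chains, nidogens, basement membrane proteoglycans, fibronectin and matricellular proteins, elastic fibre proteins and the latent TGF-beta binding proteins. They were chosen by name, 37 of the 43346 genes in the count table, and each name occurred in 1 row. Messenger RNA was measured by sequencing in 8 libraries of mouse cells, 4 of LLC1 and 4 of MLE12. The cells labelled LLC1 are Lewis lung carcinoma, an established tumour line. The cells labelled MLE12 are immortal lung epithelium, derived from a transgenic mouse whose surfactant protein C promoter drives SV40 large T antigen. Both lines were listed as from ATCC, and neither received a reagent before harvest near 80% confluence. Each side of the comparison is 1 established line, so a difference between the lines cannot be told apart from one between carcinoma and epithelium in general.

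Laminins are trimers of an alpha, a beta and a gamma chain that polymerise into the sheet of a basement membrane. Nidogens, perlecan and agrin tie that sheet to collagen IV and to cells, and in the lung it underlies the alveolar epithelium and the capillaries. Matricellular proteins such as osteopontin, thrombospondins and SPARC are secreted signals bound to matrix more than building material. Elastic fibres, which let the lung recoil, are elastin laid on fibrillin microfibrils with the help of fibulins, and latent TGF-beta binding proteins hold inactive TGF-beta on those microfibrils.

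The libraries held 46840648 to 55285307 counts in LLC1 and 48643667 to 76722481 counts in MLE12. Levels are in CPM, counts over a library size scaled by TMM and set to a common depth, given in the order of replicates 1 to 4 or as mean ± SD (n = 4 per line), and they compare a gene between lines. CPM per kilobase of the gene length in the deposited table is used to compare genes with each other. A count of 0 in a library allows a level of up to 0.0381 to 0.0693 CPM, a floor that takes each count as independent and may be too low. Log2 fold changes are LLC1 over MLE12 with SE, and p-values of edgeR's quasi-likelihood test were adjusted over all 18546 genes tested (Benjamini-Hochberg). All 5 alveolar epithelial markers checked (Nkx2-1, Sftpc, Sftpb, Cdh1 and Epcam) were at 0.0235 to 0.664 CPM in LLC1 and at 3.36 to 154 CPM in MLE12. Summed fibroblast and smooth muscle markers, 6 genes, came to 4.63 to 5.43 CPM in LLC1 libraries and 312 to 348 CPM in MLE12 libraries. Nearly all of the MLE12 sum was the proteoglycan gene Dcn, at 2.34 ± 0.117 CPM in LLC1 against 319 ± 15.8 CPM in MLE12. Pdgfrb was likewise higher in MLE12, Acta2 was higher in LLC1 (0.822 CPM in LLC1 against 0.341 CPM in MLE12), Myh11 was not called, and Lum and Thy1 were too low to be tested. Of the leukocyte markers given here, Ptprc, Cd3e, Itgam and Emr1 stood at or near 0 in both lines and Csf1r at 10.5 ± 0.788 CPM in LLC1 against 12.8 ± 1.02 CPM in MLE12. The 4 endothelial markers summed to 0.457 to 0.898 CPM in LLC1 libraries and 3.02 to 3.78 CPM in MLE12 libraries. Tek made up most of the MLE12 sum. Of the others, Cdh5 had 45 counts in LLC1 and 7 in MLE12 and was not tested, nor was Kdr, and Pecam1 was not called. The part of these markers in the matrix differences was not tested. In RNA of bulk cultures, fewer expressing cells and less RNA per cell cannot be told apart.

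Both lines expressed members of every class, but within most classes they differed in which family member was high. The 37 genes took 0.628, 0.685, 0.705 and 0.753% of all counts in the LLC1 libraries and 0.545, 0.564, 0.548 and 0.478% in the MLE12 libraries. Of the 37, 33 had enough counts to be tested, of which 19 were called toward LLC1, 13 toward MLE12 and 1 in neither direction. Of all genes tested 81.6% were called, 40.7% higher in LLC1 and 40.9% higher in MLE12. A call by itself, or a count of calls in a class or list below, thus says little here. The libraries of the lines did not overlap for 32 of the 33, and for 76.3% of all genes tested. Against a minimum fold of 2 (edgeR's glmTreat), 14 members (of all genes, 16.7%) were higher in LLC1 and 12 (of all genes, 16.9%) higher in MLE12, and 33.7% of all genes passed in either direction. The median log2 fold change of the 33 was 0.30, against 0.02 over all genes tested, and the median of its absolute size was 3.06, against 0.74. Genes that reach the count filter in the line where they are high alone raise such shares, so these figures describe the tested members and not all 37.

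**Figure D1:**
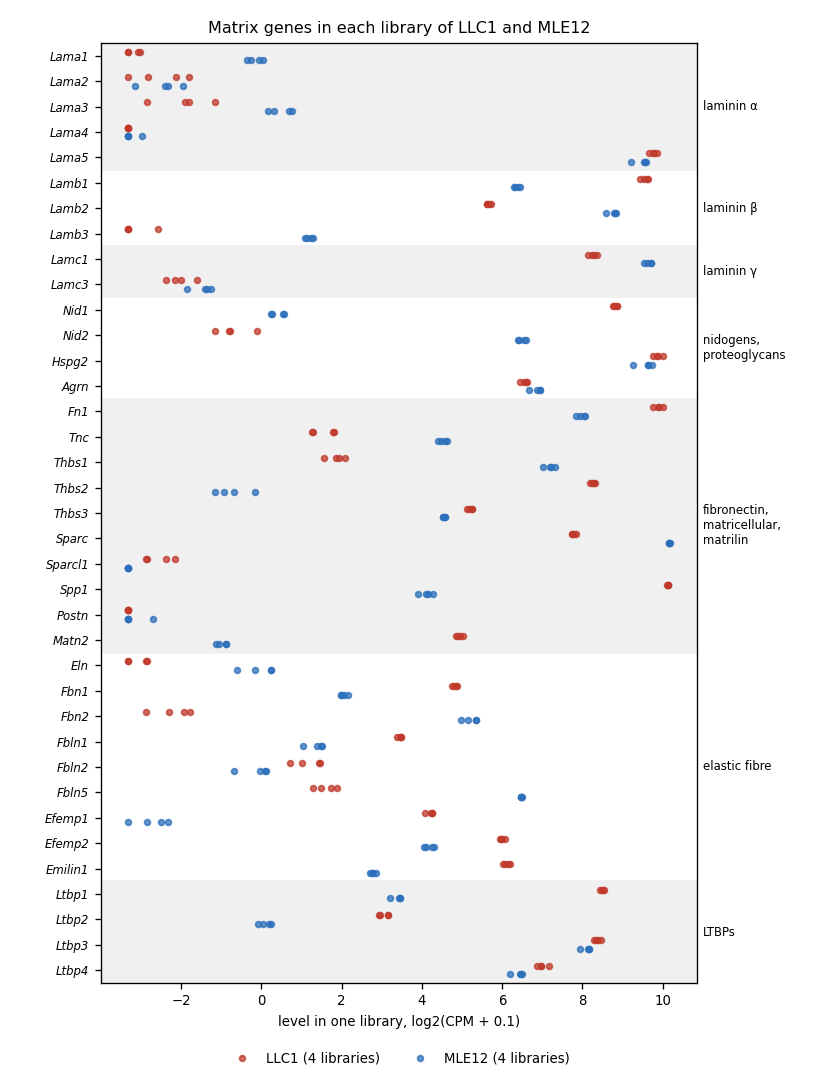
Level of each of the 37 genes in each library, as log2(CPM + 0.1) on the horizontal axis, with 1 point per library, LLC1 in red above MLE12 in blue, and genes grouped by class. Points of a line lie close together next to the distance between lines for Nid1, Nid2, Thbs1, Thbs2, Spp1 and Fbn2. For each of Lama5, Hspg2 and Ltbp3 the points of LLC1 lie near those of MLE12. The points farthest left are at 0 CPM.

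By CPM per kilobase, the osteopontin gene Spp1 led the list in LLC1 at 677 ± 8.11, and Sparc led it in MLE12 at 342 ± 2.87. Behind Spp1 in LLC1 came Fn1 (81.3 ± 5.39), Lama5 (76.8 ± 4.44), Lamb1 (76.2 ± 4.51) and Nid1 (74.8 ± 2.71), whose neighbours in that order overlapped between libraries. Behind Sparc in MLE12 came Lamc1 (97.1 ± 5.84), Lamb2 (71.2 ± 5.60), Lama5 (63.0 ± 7.28) and Hspg2 (53.4 ± 7.31). There Lamb2 overlapped Lama5 and Lama5 overlapped Hspg2, while Lamc1 did not overlap Lamb2. At 100 CPM or more were 12 of the genes in LLC1 and 9 in MLE12, with 6 in both.

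Lama5 made up nearly all of the laminin alpha chain level in both lines, the beta chain was mostly Lamb1 in LLC1 and mostly Lamb2 in MLE12, and of the 2 gamma chain genes in the list Lamc1 was by far the higher in both, at a higher level in MLE12. Lama5 (ENSMUSG00000015647, chromosome 2, 180176373 to 180225859, build mm10), the alpha chain of most adult epithelial basement membranes, made up 99.97% ± 0.0178 of the summed per-kilobase level of the 5 alpha chain genes in LLC1 and 99.7% ± 0.0356 in MLE12 (SD, n = 4 each). Lama5 stood at 813, 871, 879 and 937 CPM in the LLC1 libraries and at 746, 774, 756 and 594 CPM in the MLE12 libraries, and no LLC1 library was as low as the highest MLE12 library. The difference was small (log2 fold change 0.29 ± 0.07, adjusted p = 0.00181). MLE12 replicate 4 deviated by -17.2% from the mean of its line for Lama5 and by -19.7% for Hspg2. In that library, 57 genes that were in both the longest 10% and the GC-richest 10% had a median log2 deviation of -0.17 from the line's mean. Without MLE12 replicate 4 the Lama5 fold change was 0.20, and with the trend on GC content and length removed from each library it was 0.35, still called in both cases. That trend was taken against the mean of all libraries of both lines, so its removal also takes out any such trend between the lines. Across all settings run, the lowest log2 fold change of Lama5 was 0.19 and the largest adjusted p was 0.0492.

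The other alpha chains were low in both lines. Of the 3 alpha chain genes tested, 1 was called toward LLC1 and 2 toward MLE12, with a median log2 fold change of -2.84. That median was -1.23 where 1 CPM was required in 4 libraries, which leaves out Lama1, and -2.14 with no filter. Lama1, the chain of the early embryo, and Lama3, the chain of hemidesmosome-linked laminin in skin and airway, were higher in MLE12 but low there, at 0.805 ± 0.117 and 1.32 ± 0.283 CPM, against 0.0105 ± 0.0123 and 0.186 ± 0.129 CPM in LLC1. Lama1 had 2 counts over the 4 LLC1 libraries and 230 over the 4 MLE12 libraries. Its rate per total count in LLC1 was 1.16% of that in MLE12 (95% exact interval 0.139% to 4.23%, each count taken as independent). Lama2, the chain of muscle and nerve, had 17 counts in LLC1 and 24 in MLE12, and Lama4, the chain of vessels, had 0 and 2, so neither was tested.

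Between the beta chains the lines changed places, with 1 of the 3 genes called toward LLC1 and 2 toward MLE12 (median log2 fold change -3.09). Lamb1 stood at 699, 744, 783 and 799 CPM in the LLC1 libraries and at 78.8, 84.6, 87.5 and 80.5 CPM in the MLE12 libraries. Lamb2 stood at 49.3, 51.2, 49.6 and 52.9 CPM in the LLC1 libraries and at 442, 453, 456 and 383 CPM in the MLE12 libraries. Lamb1 (ENSMUSG00000002900, chromosome 12, 31265234 to 31329644), the widely used beta chain, was 9.13-fold higher in LLC1 (log2 fold change 3.19 ± 0.05, adjusted p = 1.6e-20), and Lamb2 (ENSMUSG00000052911, chromosome 9, 108479736 to 108490530), the beta chain of the kidney filter and the nerve-muscle synapse, was 8.54-fold lower (-3.09 ± 0.06, adjusted p = 6.8e-20). Of the summed per-kilobase level of the 3 beta chain genes, Lamb1 made up 89.7, 89.9, 90.6 and 90.3% in the LLC1 libraries and 9.82, 10.2, 10.5 and 11.4% in the MLE12 libraries, and Lamb2 nearly all the rest. The sum itself moved little, at 84.6 ± 4.67 CPM per kilobase in LLC1 and 79.9 ± 5.81 in MLE12, and the libraries overlapped. Lamb3, which pairs with Lama3, had 3 counts in LLC1, all in replicate 1, and 610 in MLE12 (2.18 ± 0.156 CPM), a rate per total count in LLC1 of 0.654% of that in MLE12 (95% exact interval 0.135% to 1.92%).

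Lamc1, the gamma chain of nearly all laminins, was 2.62-fold lower in LLC1 (log2 fold change -1.39 ± 0.05, adjusted p = 6.5e-15). Lamc1 stood at 284, 300.1, 314 and 328 CPM in the LLC1 libraries and at 787, 843, 840.4 and 742 CPM in the MLE12 libraries, with a wide gap between the lines. Lamc3 was near the floor in both, at 0.150 ± 0.0590 CPM in LLC1 against 0.268 ± 0.0631 CPM in MLE12, and did not pass the test (adjusted p = 0.0608); without LLC1 replicate 1 it did (adjusted p = 0.0376), and likewise without MLE12 replicate 3 (0.0398). The median of these 2 gamma chain genes was -1.12. The sum of Lamc1 and Lamc3 divided by the alpha sum, both per kilobase, was 0.481, 0.474, 0.492 and 0.483 in the LLC1 libraries and 1.45, 1.50, 1.53 and 1.71 in the MLE12 libraries. The beta sum over the alpha sum was 1.10, 1.09, 1.13 and 1.08 in the LLC1 libraries and 1.23, 1.22, 1.26 and 1.36 in the MLE12 libraries. Neither ratio overlapped between lines, and the gamma ratio was the one far apart.

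**Figure D2:**
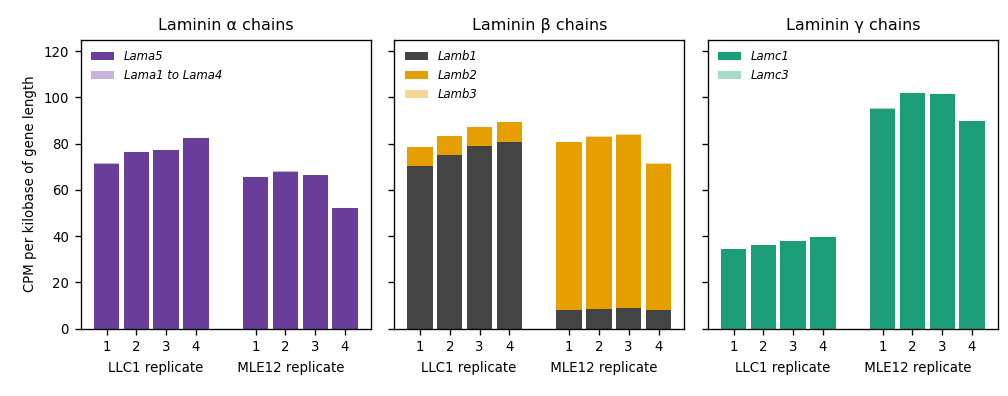
Stacked CPM per kilobase of the listed laminin alpha, beta and gamma chain genes in each library, LLC1 replicates 1 to 4 left of MLE12 replicates 1 to 4. Alpha bars are nearly all Lama5 in both lines, beta bars have a similar height but are mostly Lamb1 in LLC1 and mostly Lamb2 in MLE12, and gamma bars, nearly all Lamc1, average 37.1 in LLC1 and 97.1 in MLE12; the other chains are too low to be seen.

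The promoters of the beta chain pair and of other members far apart between the lines are shown so that their base composition can be set beside the levels. RefSeq start sites on GRCm38.p6, the coordinates of mm10, were found for 25 of the 37 genes, and each sequence runs from 250 bases before the start to 50 from it on, printed in the direction of its gene. The RefSeq start lay 59 bases from the deposited gene start for Lamb1, 126 for Lamb2 and 7 for Spp1, and at it for Nid1, Thbs2 and Sparc. Among the promoters not printed, it lay 94295 bases away for Lamb3, 2816 for Lama2 and 1555 for Fbn1. Capitals mark matches, on either strand, to letters of the TATA box (TATAAA), which helps to place the start of transcription, the GC box (GGGCGG), which Sp1 binds, the AP-1 site (TGANTCA) of Fos and Jun, and the TEAD site (GGAATG) of the Hippo pathway; no match shares a base with another in the sequences printed. The beta chain pair is Lamb1 (chr12:31265043-31265342, plus strand), at 63.7% GC with 18 CpG, and Lamb2 (chr9:108479612-108479911, plus strand), at 44.0% GC with 4 CpG. Nid1 (chr13:13437352-13437651, plus strand), Thbs2 (chr17:14694213-14694512, minus strand) and Spp1 (chr5:104434861-104435160, plus strand) were higher in LLC1, and Sparc (chr11:55420031-55420330, minus strand) was higher in MLE12.
Lamb1: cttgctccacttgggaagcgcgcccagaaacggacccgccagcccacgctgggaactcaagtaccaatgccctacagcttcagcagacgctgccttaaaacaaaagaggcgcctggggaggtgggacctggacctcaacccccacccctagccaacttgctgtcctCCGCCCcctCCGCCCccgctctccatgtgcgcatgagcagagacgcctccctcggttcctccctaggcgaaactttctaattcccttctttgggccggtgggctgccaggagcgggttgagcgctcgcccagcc
Lamb2: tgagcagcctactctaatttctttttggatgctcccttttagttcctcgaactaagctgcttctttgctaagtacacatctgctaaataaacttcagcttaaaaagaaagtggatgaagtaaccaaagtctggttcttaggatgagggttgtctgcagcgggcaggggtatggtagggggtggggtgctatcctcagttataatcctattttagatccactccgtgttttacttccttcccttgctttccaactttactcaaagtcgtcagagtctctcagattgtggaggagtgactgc
Nid1: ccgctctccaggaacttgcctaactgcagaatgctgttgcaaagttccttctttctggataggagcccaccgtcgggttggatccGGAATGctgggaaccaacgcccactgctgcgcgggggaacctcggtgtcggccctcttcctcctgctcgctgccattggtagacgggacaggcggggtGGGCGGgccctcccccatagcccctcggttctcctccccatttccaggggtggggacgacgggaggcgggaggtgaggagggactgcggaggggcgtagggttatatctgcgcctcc
Thbs2: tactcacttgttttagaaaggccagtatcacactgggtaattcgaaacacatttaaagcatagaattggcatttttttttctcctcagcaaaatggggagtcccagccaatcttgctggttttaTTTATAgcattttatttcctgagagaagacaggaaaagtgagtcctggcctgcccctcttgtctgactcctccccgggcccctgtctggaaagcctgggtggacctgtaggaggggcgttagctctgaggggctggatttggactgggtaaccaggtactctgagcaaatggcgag
Spp1: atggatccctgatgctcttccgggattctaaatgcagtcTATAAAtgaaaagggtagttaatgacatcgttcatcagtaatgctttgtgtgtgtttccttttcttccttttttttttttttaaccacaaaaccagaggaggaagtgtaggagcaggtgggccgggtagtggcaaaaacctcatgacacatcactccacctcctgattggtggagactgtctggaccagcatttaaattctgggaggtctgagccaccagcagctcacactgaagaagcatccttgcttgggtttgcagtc
Sparc: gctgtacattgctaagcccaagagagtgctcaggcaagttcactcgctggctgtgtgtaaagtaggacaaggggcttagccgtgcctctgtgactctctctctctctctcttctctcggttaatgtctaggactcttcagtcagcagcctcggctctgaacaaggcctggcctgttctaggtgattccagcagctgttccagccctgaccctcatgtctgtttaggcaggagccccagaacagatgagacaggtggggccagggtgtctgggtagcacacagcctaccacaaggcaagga

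The Lamb1 promoter held 2 GC boxes and the Lamb2 promoter none of the 4 motifs. Nid1, at 64.7% GC with 20 CpG, held 1 GC box and 1 TEAD match. Thbs2, with 4 CpG, and Spp1, with 3 CpG, each held 1 TATAAA match, and Sparc, with 4 CpG, held none of the motifs. Other genes called higher in MLE12 with a promoter found were Fbln5 (65.7% GC, 24 CpG) with 2 GC boxes and Agrn (83.3% GC, 42 CpG) with 12. Tnc (47.3% GC, 10 CpG) held 1 TATAAA match and 1 GC box, and Lamb3 (59.3% GC, 2 CpG) held no match. The printed promoters thus do not stand for all members on a side. Matches were sought at any place in the 300 bases, so a TATAAA match need not be a working TATA box. Over the 25 promoters, the letters TATAAA were found in 4, those of the GC box in 15, of the AP-1 site in 2 and of the TEAD site in 1. Of 32841 RefSeq promoters of the same length, 13.6% held the letters TATAAA, 35.7% those of the GC box, 7.81% of the AP-1 site and 14.7% of the TEAD site. Their median was 52.7% GC and 7 CpG. A match describes these letters and no binding was measured.

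The nidogens changed places as the beta chains did, by larger folds, while perlecan and agrin were close in level in both lines. Nid1 and Nid2 encode the rod-shaped linkers between laminin and collagen IV. Nid1 stood at 434, 443, 464 and 468 CPM in the LLC1 libraries and at 1.36, 1.10, 1.09 and 1.38 CPM in the MLE12 libraries. Nid2 stood at 0.832, 0.486, 0.351 and 0.476 CPM in the LLC1 libraries and at 86.0, 96.9, 93.1 and 83.9 CPM in the MLE12 libraries. Nid1 (ENSMUSG00000005397, chromosome 13, 13437602 to 13512275) was 370.0-fold higher in LLC1 (log2 fold change 8.53 ± 0.07, adjusted p = 1.0e-23) and Nid2 (ENSMUSG00000021806, chromosome 14, 19751257 to 19811787) 170.2-fold lower (-7.41 ± 0.12, adjusted p = 1.1e-19). Nid2 shares 437 bases of exon, 8.95% of its length, with Rtraf on the other strand, and the strand setting of the counting is not given in the sources used here. Rtraf averaged 87.0 CPM in LLC1, where Nid2 was under 1 CPM, and 128 CPM in MLE12. Its part in the Nid2 counts was not tested. Levels of such genes on the other strand, here and below, are counts over library totals without TMM. Per kilobase, Nid1 made up 99.9% ± 0.0618 of the nidogen pair in LLC1 and 1.10% ± 0.210 in MLE12.

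Hspg2 encodes perlecan, the large heparan sulphate proteoglycan of basement membranes. Hspg2 stood at 864, 935, 947 and 1022 CPM in the LLC1 libraries and at 789, 854, 799 and 613 CPM in the MLE12 libraries. The lines did not overlap, by a narrow margin, and the difference was called (log2 fold change 0.30 ± 0.09, adjusted p = 0.00806). It was no longer called with library totals alone (0.20, adjusted p = 0.0995) or with no filter on low counts (0.26, adjusted p = 0.102). Without MLE12 replicate 4, the lowest library, the difference was 0.20 and still called (adjusted p = 8.5e-04). Agrn encodes agrin, which binds laminin and dystroglycan. Agrn stood at 86.9, 93.7, 96.9 and 97.9 CPM in the LLC1 libraries and at 123, 123, 117 and 101 CPM in the MLE12 libraries, all LLC1 libraries lower (log2 fold change -0.31 ± 0.06, adjusted p = 9.5e-05). The median of these 4 linker and proteoglycan genes was close to 0, with 2 higher in each line.

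**Figure D3:**
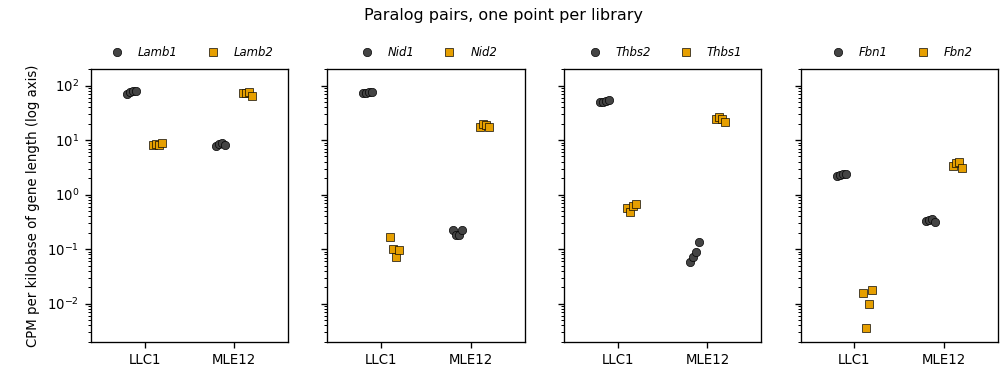
CPM per kilobase, on a log axis, of the paralog pairs Lamb1 and Lamb2, Nid1 and Nid2, Thbs2 and Thbs1, and Fbn1 and Fbn2, 1 point per library, LLC1 left of MLE12. In each panel the gene drawn as circles is the higher one in every LLC1 library and the gene drawn as squares the higher one in every MLE12 library; the pairs were picked after their values were seen.

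Fibronectin, osteopontin, Thbs2 and Matn2 were higher in LLC1, and Sparc, Thbs1 and Tnc were higher in MLE12. Of the 10 fibronectin, matricellular and matrilin genes, 8 were tested, 5 higher in LLC1 and 3 higher in MLE12, with a median log2 fold change of 1.28. Spp1 encodes osteopontin, a secreted phosphoprotein that binds integrins and CD44 and is plentiful in many carcinomas. Spp1 stood at 1132, 1099, 1119 and 1115 CPM in the LLC1 libraries and at 14.9, 17.2, 17.6 and 19.3 CPM in the MLE12 libraries. It was 64.9-fold higher in LLC1 (log2 fold change 6.02 ± 0.07, adjusted p = 1.3e-22; ENSMUSG00000029304, chromosome 5, 104435118 to 104441050), and replicates of a line differed by little next to that gap. Fn1 encodes fibronectin, the adhesive glycoprotein that cells assemble into fibrils. Fn1 stood at 870.4, 962, 945 and 1024 CPM in the LLC1 libraries and at 247, 264, 269 and 227 CPM in the MLE12 libraries, a 3.77-fold difference toward LLC1 (log2 fold change 1.92 ± 0.06, adjusted p = 4.3e-16). Fn1 shares 292 bases of exon with Apol7d on the other strand, 2.50% of its length.

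The thrombospondins are calcium-binding glycoproteins, of which Thbs1 and Thbs2 form trimers that restrain blood vessel growth. Thbs2 stood at 294, 301, 313 and 318 CPM in the LLC1 libraries and at 0.349, 0.424, 0.520 and 0.800 CPM in the MLE12 libraries. Thbs1 stood at 3.51, 2.86, 3.72 and 4.17 CPM in the LLC1 libraries and at 147, 159.6, 149 and 130.0 CPM in the MLE12 libraries. Thbs2 (ENSMUSG00000023885, chromosome 17, 14665500 to 14694262) had a log2 fold change of 9.26 ± 0.10 and Thbs1 (ENSMUSG00000040152, chromosome 2, 118111876 to 118127133) one of -5.36 ± 0.09 (adjusted p = 5.1e-18). Thbs2 was the member with the highest fold change of the list. Thbs2 made up 98.9% ± 0.144 of the per-kilobase level of this pair in LLC1 and 0.375% ± 0.175 in MLE12. Thbs3, which forms pentamers, was nearer in level. Thbs3 stood at 35.0, 38.1, 36.1 and 37.8 CPM in the LLC1 libraries and at 23.0, 23.9, 23.8 and 23.1 CPM in the MLE12 libraries, a called difference under 2-fold (log2 fold change 0.65 ± 0.05). Thbs3 shares 318 bases of exon, 6.59% of its length, with Mtx1 on the other strand, which averaged 61.8 CPM in LLC1 and 51.9 CPM in MLE12.

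Sparc encodes a collagen-binding protein that loosens cell adhesion. Sparc stood at 222, 215, 229.7 and 212 CPM in the LLC1 libraries and at 1165, 1149.7, 1148 and 1142 CPM in the MLE12 libraries, and the MLE12 replicates lay close together. Its log2 fold change was -2.39 ± 0.04 (adjusted p = 4.5e-20; ENSMUSG00000018593, chromosome 11, 55394500 to 55420080). Tnc encodes tenascin-C, a glycoprotein of developing and wounded tissue. Tnc stood at 2.29, 2.36, 3.35 and 3.43 CPM in the LLC1 libraries and at 22.0, 24.7, 23.7 and 21.0 CPM in the MLE12 libraries, a log2 fold change of -3.00 ± 0.11. Matn2, a matrilin that forms filaments in the matrix, went the other way. Matn2 stood at 28.6, 29.7, 32.4 and 30.6 CPM in the LLC1 libraries and at 0.440, 0.358, 0.444 and 0.380 CPM in the MLE12 libraries (log2 fold change 6.21 ± 0.10). The SPARC relative Sparcl1 had 14 counts in LLC1 and 0 in MLE12, and the periostin gene Postn had 0 in LLC1 and 4 in MLE12, so neither was tested.

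**Figure D4:**
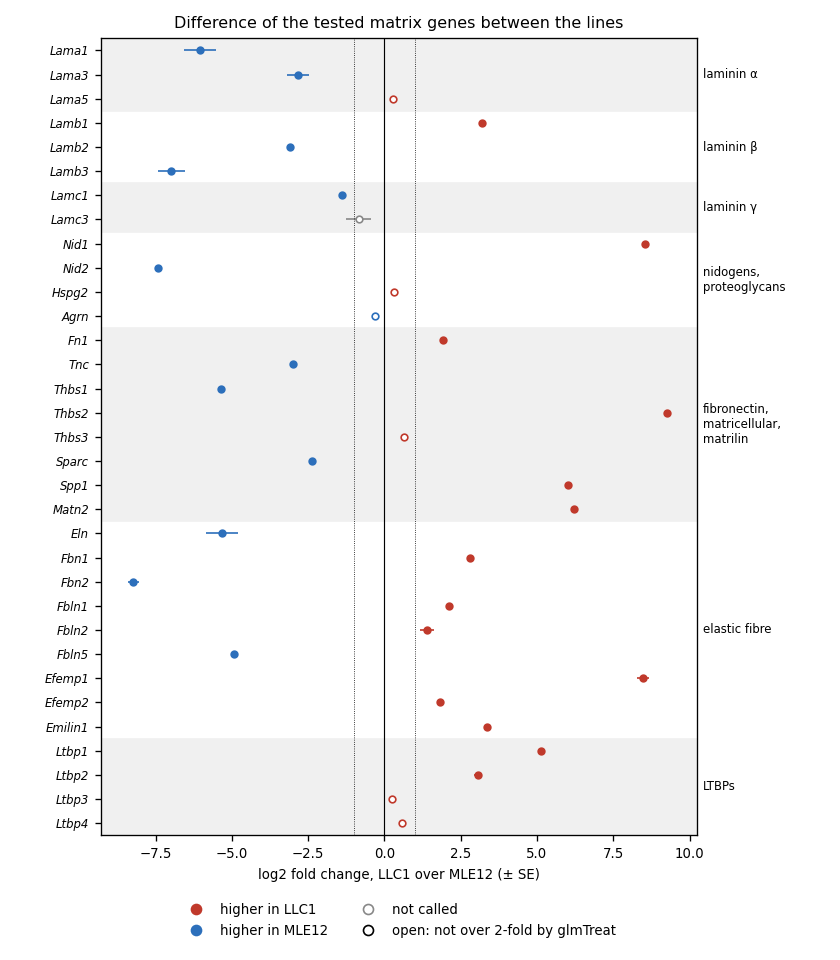
Log2 fold change, LLC1 over MLE12, of the 33 tested genes with SE bars, grouped by class; red is higher in LLC1, blue higher in MLE12, grey not called, and open symbols did not pass glmTreat against a fold of 2 (dotted lines). Thbs2 at 9.26 lies farthest right and Fbn2 at -8.23 farthest left, the 4 latent TGF-beta binding proteins all lie right of 0, and the open symbols are Lama5, Lamc3, Hspg2, Agrn, Thbs3, Ltbp3 and Ltbp4.

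Among the elastic fibre genes the fibrillins changed places, and most fibulins and Emilin1 were higher in LLC1. Elastin itself averaged under 1 CPM in both lines. All 9 elastic fibre genes were tested, 6 higher in LLC1 and 3 higher in MLE12, with a median log2 fold change of 1.82. All 9 passed the 2-fold test, against 33.7% of all genes tested. Eln, Fbn2 and Efemp1 reached the count filter through the line where they were high, which raises such a share. The list was also chosen with earlier results of these data known. Fbln2 passed the 2-fold test by little (adjusted p = 0.0444). Fbln2 no longer passed it with library totals alone (0.101), with a replicate block (0.0775), or without LLC1 replicate 3 (0.117), LLC1 replicate 4 (0.116) or MLE12 replicate 3 (0.187). Fibrillins polymerise into microfibrils, Fbn2 chiefly before birth and Fbn1 throughout life. Fbn1 stood at 26.6, 27.6, 29.2 and 29.0 CPM in the LLC1 libraries and at 3.89, 4.10, 4.35 and 3.84 CPM in the MLE12 libraries. Fbn2 stood at 0.162, 0.0374, 0.103 and 0.190 CPM in the LLC1 libraries and at 35.2, 40.4, 40.9 and 31.6 CPM in the MLE12 libraries. The log2 fold change was 2.79 ± 0.07 for Fbn1 (ENSMUSG00000027204, chromosome 2, 125300594 to 125507993) and -8.23 ± 0.18 for Fbn2 (ENSMUSG00000024598, chromosome 18, 58008623 to 58209926). Within the pair Fbn1 held 99.5% ± 0.277 of the per-kilobase level in LLC1 and 8.67% ± 0.612 in MLE12. Fbn1 shares 2442 bases of exon, 20.1% of its length, with the low gene model Gm9913 on the other strand (0.756 CPM in LLC1 and 0.105 CPM in MLE12).

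Eln, which encodes the elastic core, stood at 0.0189 ± 0.0218 CPM in LLC1, 4 counts over 4 libraries, and at 0.882 ± 0.252 CPM in MLE12, 257 counts (log2 fold change -5.33 ± 0.53). Fbln5, a fibulin that brings elastin to microfibrils and is needed for elastic fibres in mouse lung, was higher in MLE12. Fbln5 stood at 3.21, 2.34, 3.58 and 2.70 CPM in the LLC1 libraries and at 88.8, 89.1, 89.2 and 89.6 CPM in the MLE12 libraries (log2 fold change -4.92 ± 0.08, adjusted p = 3.9e-20). Efemp2 encodes fibulin-4, which is likewise needed for elastic fibres and helps to load lysyl oxidase. Efemp2 stood at 61.6, 63.7, 63.1 and 67.6 CPM in the LLC1 libraries and at 19.1, 17.2, 19.5 and 16.4 CPM in the MLE12 libraries, so this elastogenic fibulin and Fbln5 were on opposite sides (log2 fold change 1.82 ± 0.06). Efemp2 shares 173 bases of exon, 6.53% of its length, with Mus81 on the other strand.

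Efemp1 encodes fibulin-3. Efemp1 stood at 18.9, 16.8, 18.7 and 19.1 CPM in the LLC1 libraries and at 0.0388, 0, 0.0761 and 0.100 CPM in the MLE12 libraries, which puts MLE12 near the floor (log2 fold change 8.47 ± 0.21). Emilin1 encodes a glycoprotein at the surface of elastic fibres. Emilin1 stood at 71.3, 65.4, 73.3 and 67.7 CPM in the LLC1 libraries and at 6.40, 7.17, 6.74 and 6.68 CPM in the MLE12 libraries (log2 fold change 3.36 ± 0.06). Fbln1 encodes fibulin-1, found in basement membranes and elastic fibres. Fbln1 stood at 11.1, 10.4, 11.2 and 10.9 CPM in the LLC1 libraries and at 2.51, 2.76, 2.73 and 1.96 CPM in the MLE12 libraries (log2 fold change 2.11 ± 0.11). Fbln2 was low in both, at 2.19 ± 0.541 CPM in LLC1 against 0.838 ± 0.217 CPM in MLE12 (1.39 ± 0.23). For all 4 the LLC1 libraries lay above the MLE12 libraries without overlap, while 76.3% of all genes tested had no overlap in either direction.

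The 4 latent TGF-beta binding protein genes were all called higher in LLC1, as were 40.7% of all genes tested. Ltbp1 and Ltbp2 were higher by over 2-fold and Ltbp3 and Ltbp4 by less. The median of the 4 was 1.83. LTBP-1, LTBP-3 and LTBP-4 bind the latent TGF-beta complex, and LTBP-2 binds microfibrils without it. Ltbp1 stood at 346, 356, 369 and 367 CPM in the LLC1 libraries and at 9.13, 10.9, 10.6 and 10.9 CPM in the MLE12 libraries. It was 34.7-fold higher in LLC1 (log2 fold change 5.12 ± 0.06, adjusted p = 1.2e-22; ENSMUSG00000001870, chromosome 17, 75005568 to 75392512). Ltbp3 stood at 310.3, 324, 335 and 352 CPM in the LLC1 libraries and at 287, 282, 287 and 247 CPM in the MLE12 libraries. Ltbp4 stood at 117, 124, 126 and 144 CPM in the LLC1 libraries and at 89.1, 89.6, 87.8 and 73.6 CPM in the MLE12 libraries. The log2 fold changes were 0.26 ± 0.05 for Ltbp3 (adjusted p = 1.7e-04) and 0.59 ± 0.07 for Ltbp4 (adjusted p = 7.9e-07), and in both genes MLE12 replicate 4 was the lowest of its line. Without that library they were 0.20 for Ltbp3 and 0.52 for Ltbp4, both still called. Ltbp2 was low, at 8.20 ± 0.719 CPM in LLC1 against 0.972 ± 0.111 CPM in MLE12 (3.06 ± 0.13).

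The TGF-beta ligands that such proteins hold did not follow the same direction. Tgfb2 averaged 1.74 ± 0.409 CPM in LLC1 against 211 ± 10.2 CPM in MLE12 (log2 fold change -6.93 ± 0.09), and Tgfb3 averaged 11.5 ± 1.02 CPM in LLC1 against 59.7 ± 2.26 CPM in MLE12 (-2.37 ± 0.06). Tgfb1 was close in level, at 13.9 ± 1.24 CPM in LLC1 against 10.6 ± 1.13 CPM in MLE12 (0.39 ± 0.09, adjusted p = 4.3e-04). Of the 3 ligands, 1 was thus higher in LLC1 and 2 higher in MLE12.

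**Figure D5:**
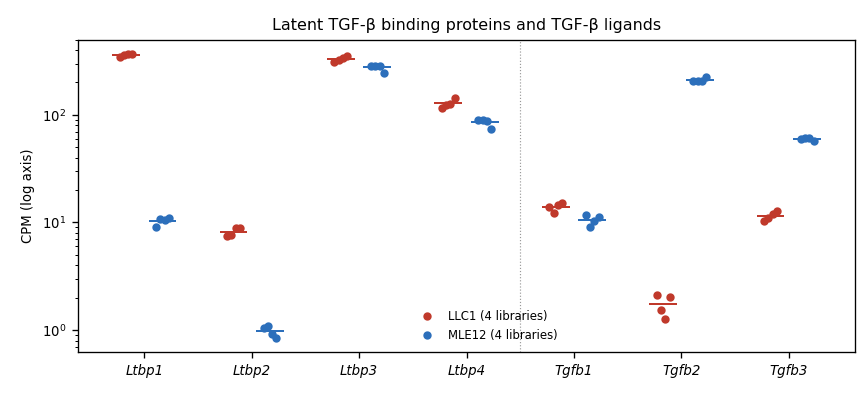
CPM on a log axis of the latent TGF-beta binding protein genes (left of the dotted line) and the TGF-beta genes (right of it), 1 point per library and a bar at the mean, LLC1 in red left of MLE12 in blue. Ltbp1 averages 359.6 CPM in LLC1 against 10.4 CPM in MLE12, and Tgfb2 1.74 CPM in LLC1 against 211 CPM in MLE12.

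Receptors for these proteins also differed by family member. Of 7 laminin receptor genes tested, 3 were called toward LLC1 and 4 toward MLE12 (median log2 fold change -1.39). The alpha6 integrin gene Itga6 averaged 673 ± 17.8 CPM in LLC1 against 8.52 ± 1.13 CPM in MLE12, and the alpha7 gene Itga7 26.3 ± 1.63 CPM in LLC1 against 0.338 ± 0.107 CPM in MLE12. Toward MLE12, the dystroglycan gene Dag1 averaged 145 ± 10.7 CPM in LLC1 against 641 ± 28.9 CPM in MLE12, and the beta1 integrin gene Itgb1 564 ± 11.7 CPM in LLC1 against 1553 ± 70.8 CPM in MLE12. The laminin alpha5 receptor gene Bcam stood at 0.365 ± 0.147 CPM in LLC1 against 10.4 ± 0.413 CPM in MLE12. Among receptors for fibronectin, osteopontin, tenascin and thrombospondin, 10 of 12 were tested, 3 higher in LLC1 and 7 higher in MLE12 (median -2.45). The osteopontin and hyaluronan receptor gene Cd44 (2.35 ± 0.05) and the fibronectin receptor gene Itga5 (2.16 ± 0.05) were higher in LLC1, like Spp1 and Fn1. The integrin genes Itgb5 (-1.73 ± 0.05) and Itgav (-0.81 ± 0.04) were higher in MLE12. Cd47, a thrombospondin receptor gene, was 0.20 ± 0.06 and was not called with library totals alone (0.10, adjusted p = 0.112).

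Further matrix genes outside the 37 split as follows. Of 14 other basement membrane genes 9 were tested, 3 higher in LLC1 and 5 higher in MLE12 (median -0.32): Smoc1 (8.32 ± 0.17) and Pxdn (1.61 ± 0.05), whose product peroxidasin crosslinks collagen IV, and the netrin gene Ntn4 (0.57 ± 0.10) were higher in LLC1, and Fras1 (-7.74 ± 0.12), Hmcn1 (-7.56 ± 0.19) and the nephronectin gene Npnt (-3.16 ± 0.06) higher in MLE12. Of 19 other matricellular genes 14 were tested, 4 higher in LLC1 and 10 higher in MLE12 (median -4.61), among them the CCN family genes Ctgf (-7.36 ± 0.08) and Wisp1 (-5.12 ± 0.11) and the matrilin gene Matn3 (-6.43 ± 0.20); Matn3 was thus on the side opposite to Matn2. Of 13 other elastic fibre genes 8 were tested, 4 toward LLC1, 2 toward MLE12 and 2 not called (median 0.57). Emilin2 averaged 42.1 ± 2.95 CPM in LLC1 against 1.63 ± 0.244 CPM in MLE12, on the side of Emilin1. Among lysyl oxidase relatives, enzymes that crosslink collagen and elastin, Loxl3 (1.35 ± 0.04) and Loxl4 (0.70 ± 0.09) were higher in LLC1 and Loxl2 (-3.86 ± 0.06) was higher in MLE12, Loxl2 with 16.8 ± 0.620 CPM in LLC1 against 245 ± 17.1 CPM in MLE12.

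Several members far apart between the lines kept a small level in the lower line. In MLE12 the mean was 0.171% of the LLC1 mean for Thbs2, 0.272% for Nid1, 0.293% for Efemp1, 1.34% for Matn2 and 1.55% for Spp1. The highest MLE12 value was in replicate 3 for Matn2 and in replicate 4 for the other genes of these 5. In LLC1 the mean was 0.333% of the MLE12 mean for Fbn2 and 0.596% for Nid2, highest in LLC1 replicate 4 for Fbn2 and in LLC1 replicate 1 for Nid2. The source of these reads was not tested, and fold changes of such genes depend on them.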

How the data were processed

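The sources used here describe 8 libraries of poly-A RNA, 4 of LLC1 and 4 of MLE12, read as pairs. The authors deposited raw counts per gene, and the submitters' processing notes name TopHat2, featureCounts, CASAVA, edgeR and build mm10; versions, annotation release and strand setting are not given in the sources used here. In every library more genes had a count of 2 than of 1, as when mates are counted separately, and PCR copies are not independent molecules. Intervals and floors take each count as independent, so they may be too narrow even for counting error.

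Counts were tested with edgeR 4.0.16 in R 4.3.3: filterByExpr by line, TMM, glmQLFit (robust) and glmQLFTest with no covariates, Benjamini-Hochberg adjustment, threshold 0.05, and glmTreat against a fold of 2. Each SE was taken as the absolute log2 fold change over the square root of F. The fit was tested on simulated data first. Of the 43346 genes, 13936 had no count and 18546 were tested. Length is the deposited length column; GC content, strands and overlaps are from GENCODE M21. Separate cultures are not named in the labels, and p-values may thus rest on technical spread alone. Libraries of the same line differed beyond the noise of independent counts (chi-square per degree of freedom 6.35 to 53.1). Mates counted separately or PCR copies would raise these values as well, and their part was not tested.

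The members, gene lists and alternatives were chosen with earlier results of these data known. Members of at least 10 CPM in either line are given in every library, and from each further list up to 3 called genes per direction with the largest fold changes among those of at least 10 CPM. Alternatives were DESeq2 1.42.0, 3 other scalings, 2 other filters, a replicate block, leaving out the 20 most abundant genes, leaving out single libraries and, added after seeing the data, removal of a GC and length trend. Some genes, and results that need them, are not reported here.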

Additional observations from a re-analysis of the deposited data

Results flagged for a closer look

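In groups of 4 libraries, the gap between the lowest or highest library and its nearest neighbour was taken as a share of the group's range. That share was large enough to pass Dixon's criterion in 5 of 66 groups. Chance gives about 1 in 20 for independent groups of normally spread values. Groups here share libraries, and counts near the floor are not normally spread, so the 5 of 66 cannot be judged by that rate. Lama5 was low in MLE12 replicate 4, at 594 CPM. Ltbp3 was low in the same library at 247 CPM, and so was Ltbp4 at 73.6 CPM. Ltbp1 was low in MLE12 replicate 1, at 9.13 CPM. Lamb3 stood at 0.0693 CPM in LLC1 replicate 1, which held all 3 of its LLC1 counts.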

How the results depend on the processing

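The members called numbered 19 higher in LLC1 and 13 higher in MLE12, and none of the 33 tested members and 26 genes named from the pathway lists changed direction under any alternative run. Library totals alone shifted the median of all genes by -0.099 on the log2 scale; they gave 18 and 14 called members and, as class medians, -3.19 for beta chains, -0.10 for nidogens and proteoglycans, 1.19 for fibronectin and matricellular genes and 1.73 for elastic fibre genes. Upper-quartile factors gave -3.04 for beta chains and 1.88 for elastic fibre genes. The filter of at least 1 CPM in 4 libraries left out Lama1, Eln and Lamc3 and gave 19 and 11 called members, with medians of -1.23 for alpha and -1.34 for gamma chains and 2.02 for elastic fibre genes. The beta chain median, with no gene left out, was then -3.04, where the fold changes of all genes shifted by a median of 0.051. With no filter the alpha chain median was -2.14. With the GC and length trend removed the beta chain median was -2.99, and with single libraries left out it ran from -3.16 to -3.06. Not divided by length, Lamb1 made up 93.7% of the beta chain level in LLC1 and 16.0% in MLE12, and Lamb2 made up 6.30% in LLC1 and 83.6% in MLE12. Lamc3 was called with library totals alone (adjusted p = 0.0384) and without LLC1 replicate 1 or MLE12 replicate 3. With LLC1 replicate 1 left out Lamb3 had no LLC1 count. Hspg2 was lost with library totals alone and with no filter. The cause of these changes was not tested, apart from the genes that a filter leaves out.

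The labels give both lines the same replicate numbers without saying what they share. Deviations from the line mean correlated at -0.07, 0.16, 0.14 and -0.20 between libraries of the same number. Across different numbers they ran from -0.17 (LLC1 replicate 1 with MLE12 replicate 2) to 0.23 (LLC1 replicate 1 with MLE12 replicate 4). These values do not decide whether libraries were paired. The main fit used no pairs because the labels name none. With a replicate block the fit called 19 members higher in LLC1 and 13 higher in MLE12, 13 and 12 of them over 2-fold, and 7380 and 7415 of all genes.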
